A study of Arabidopsis thaliana with 48 samples.

Results

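Transcripts were compared between wild-type Col-0 seedlings moved to heat (HS) and wild-type seedlings kept as Control. Of 48 libraries, 6 belong to this comparison, chosen by their titles, with 3 for each group. All genes with an FPKM (fragments per kilobase of transcript and per megafragment mapped) of at least 1 in at least 3 of the 6 libraries were followed, which left 18826 of 32824 identifiers.

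Heat acts on plant cells by unfolding proteins. Heat shock factors, which are transcription factors held inactive by chaperones in the cool, then bind heat shock elements (alternating nGAAn units) in promoters and switch on chaperone genes. In Arabidopsis the induced chaperones include small heat shock proteins that hold unfolded proteins, HSP101 that pulls aggregates apart, and the HSP90, HSP70 and HSP60 machines that refold them.

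Seedlings of both groups were wild type and 7 days old, and grew on diluted Murashige and Skoog medium with no salt under 150 µE of light. HS seedlings spent 1.5 h at 33 °C, while Control seedlings stayed at 21 °C. The other 42 libraries, of a bHLH35 mutant and of salt (S, 50 mM), high light (HL, 700 µE) and combined treatments, served only to read the same heat contrast elsewhere. Nothing states whether replicates came from separate plates or plants, so p-values measure the spread between these libraries. RNA came from seedlings, and fewer cells of a type cannot be told apart from less RNA per cell.

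Depth read from the steps of low FPKM values was 21.4 M to 27 M fragments (M, mega) in these 6 libraries, and 18483 to 18659 genes reached 1 FPKM. Across genes tested, Pearson correlations of log2(FPKM + 1) were 0.965 to 0.979 within a group and 0.897 to 0.918 between groups. Leaf genes such as RBCS1A were abundant in every library, and 6 of 7 root markers passed the filter. Of the flower markers, AP3 and AG stayed at or under 0.28 FPKM while PI stood at 16.7, 10.5 and 12.5 FPKM in Control. The seed storage genes CRA1, SESA1 and OLEO1 were near 0 except in Control replicate 3, which held 23.4, 28.3 and 4.63 FPKM. Whether that seed signal touches any result was not tested.

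Heat changed 5015 of the 18826 genes, or 26.6%, at an adjusted p under 0.05 in limma's moderated test (Benjamini-Hochberg over all genes tested). Of these, 2482 were higher in HS, which is 13.2% of the genes tested, and 2533 were lower, which is 13.5%. With an absolute change of at least 1 on the log2(FPKM + 1) scale, 1561 genes (8.29%) were called, of which 879 genes (4.67%) were higher and 682 (3.62%) lower, and the median change over all genes was -0.014. The highest rise reached 10.92, whereas the deepest fall was -5.80. Leaving out HS replicate 2 lowered the count from 5015 to 2894 and leaving out Control replicate 3 lowered it to 3248. In 8220 genes (43.7%) the HS and Control values did not overlap.

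**Figure D1:**
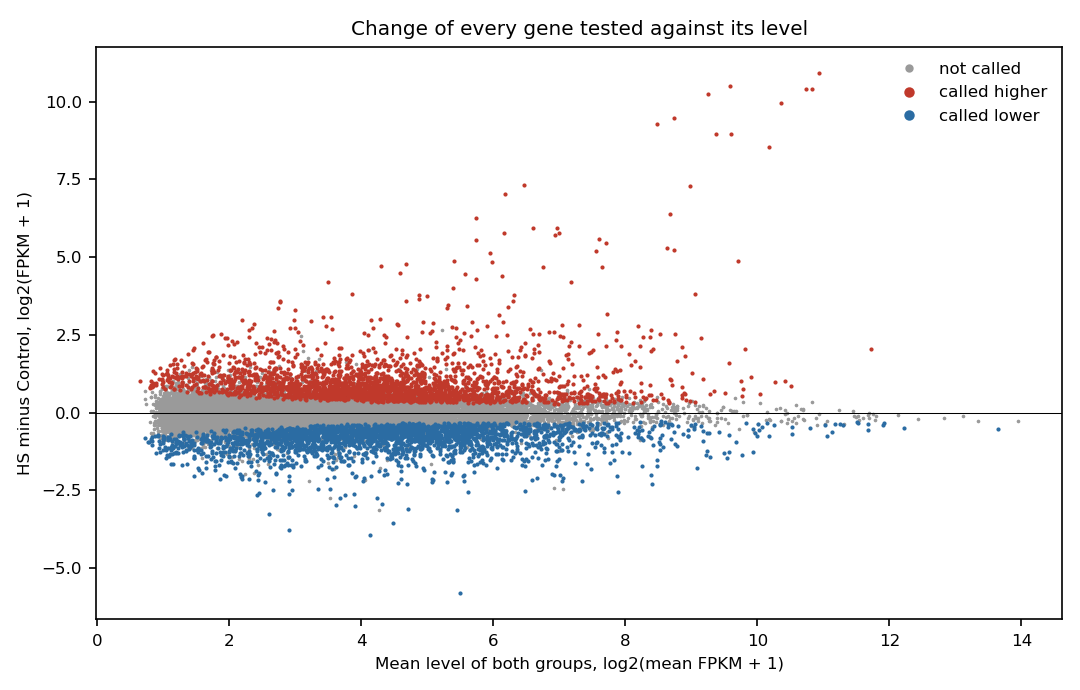
Change of each of the 18826 genes in HS against Control (vertical axis, difference of mean log2(FPKM + 1)) plotted against its level (horizontal axis, log2 of the mean FPKM of both groups plus 1). Red points were called higher, blue points lower and grey points neither. A scatter of red points rises to 10.92, far from the body of the data, and the blue points reach -5.80.

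Small heat shock proteins were among the highest of these rises. These proteins bind unfolding clients without using ATP and are nearly silent in unstressed leaves. Among 10 genes of cytosolic members, 9 were called higher and none lower, with a median log2 change of 7.91 over all 10, beside -0.014 over all genes. Of all genes tested, 13.2% were higher and 13.5% lower. All 6 members sent to organelles were higher as well, with a median of 8.16, or 7.42 without the 2 genes listed at 0 in every Control library. ATHSP22.0, HSP21, HSP23.6-MITO and AT1G52560 were under 1 FPKM in every Control library. Because they passed the filter only through HS, these genes could not have been called lower. Summed over the cytosolic list, FPKM went from between 101 and 113 in Control to between 8514 and 18833 in HS.

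AT1G53540, a cytosolic class I member known as HSP17.6C, stood at 2.61, 0.974 and 1.13 FPKM in Control and at 5570.0, 3302 and 2086 FPKM in HS, a log2 change of 10.41 (SE 0.35, adjusted p 1.5e-06). HSP17.6II, of cytosolic class II, went from 4.51, 1.07 and 0.502 FPKM to 3313, 2623 and 1922 FPKM, a log2 change of 9.95 (SE 0.43, adjusted p 4.2e-06). Its class II neighbour HSP17.6A (AT5G12030) went from 2.15, 1.51 and 0.835 to 1939, 1326 and 705 FPKM. For each of these genes the lowest HS library lay far above the highest Control library.

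HSP18.2 (AT5G59720), named for the size of its change rather than as a list member, rose from 1.42, 0.976 and 1.57 to 4436, 4185 and 1639.6 FPKM, a log2 change of 10.40 (SE 0.34, adjusted p 1.4e-06). AT2G29500, another class I member, held more transcript in Control, at 6.3, 4.93 and 4.27 FPKM, and rose to 2797, 2279 and 1844 FPKM, a log2 change of 8.54 (SE 0.17, adjusted p 7.4e-08). AT2G19310, known as HSP18.5, began higher still at 38.8, 41.1 and 40.3 FPKM and rose to 502, 388 and 254 FPKM. The single cytosolic member not called was AT4G21870 (HSP15.4), at 44.0, 49.0 and 47.0 FPKM in Control and 31.4, 44.5 and 26.9 FPKM in HS, with a log2 change of -0.46 and overlapping groups. Without HS replicate 2 that gene was called lower, at -0.66 (adjusted p 0.02).

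Among organelle members, ATHSP22.0 of the endoplasmic reticulum was listed at 0 in all 3 Control libraries and at 1972, 1759 and 894 FPKM in HS. HSP21, which protects chloroplasts, was listed at 0, 0 and 0.142 FPKM in Control and reached 1034, 730.1 and 369 FPKM. HSP23.6-MITO, of mitochondria, rose from 0.161, 0.246 and 0.0645 to 1099, 835.7 and 616 FPKM, a log2 change of 9.49 (SE 0.20, adjusted p 7.4e-08). AT1G52560, annotated as an HSP20-like chaperone, was listed at 0 in Control and at 211, 149 and 68.8 FPKM in HS. Its Control libraries, like those of ATHSP22.0, give no fold. AT5G37670 (HSP15.7, peroxisomal) and AT5G51440 (HSP23.5, mitochondrial) rose by 5.54 and 5.21 on the log2 scale.

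Promoters of the 6 listed heat genes with the highest rise are shown because heat shock elements are the letters through which heat shock factors act. Each line gives the 120 bases before the annotated gene start on the gene's strand, read from assembly TAIR10.1 (RefSeq), and capitals mark every match to a pair of units, gaannttc or ttcnngaa.
ATHSP22.0 (chr4:6370218-6370337, plus strand): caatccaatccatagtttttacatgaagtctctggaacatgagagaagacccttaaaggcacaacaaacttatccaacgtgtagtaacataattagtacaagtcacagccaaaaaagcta
AT1G53540 (chr1:19980179-19980298, plus strand): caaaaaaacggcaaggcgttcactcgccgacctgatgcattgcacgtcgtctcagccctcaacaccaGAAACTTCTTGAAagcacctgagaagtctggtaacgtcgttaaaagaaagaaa
HSP17.6II (chr5:3883112-3883231, minus strand): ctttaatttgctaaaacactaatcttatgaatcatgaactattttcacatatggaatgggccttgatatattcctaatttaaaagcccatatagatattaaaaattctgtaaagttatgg
HSP23.6-MITO (chr4:12916806-12916925, plus strand): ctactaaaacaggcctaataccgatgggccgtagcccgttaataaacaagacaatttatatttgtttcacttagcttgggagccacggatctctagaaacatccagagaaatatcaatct
HSP21 (chr4:13819972-13820091, minus strand): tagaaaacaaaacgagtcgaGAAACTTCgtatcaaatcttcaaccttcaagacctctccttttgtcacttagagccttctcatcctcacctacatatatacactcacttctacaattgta
HSP17.6A (chr5:3884839-3884958, minus strand): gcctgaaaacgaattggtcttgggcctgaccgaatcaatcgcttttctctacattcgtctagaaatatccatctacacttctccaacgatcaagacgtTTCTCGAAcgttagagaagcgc

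In AT1G53540 a pair overlapped a further pair to give the full element of 3 units, gaannttcnngaa, while HSP21 and HSP17.6A held 1 pair each. No match stood in the shown 120 bases of the other 3 genes, which says only that these letters are not in that window. Searched on both strands over 300 bases, the 3-unit element (gaannttcnngaa or ttcnngaannttc) stood in 0.485% of the 27443 protein-coding promoters of the annotation. It stood in 1.0% of the 2400 promoters of genes called higher and in 0.443% of the 2482 of genes called lower. Among the 54 promoters of genes higher by at least 3 on the log2 scale it stood in 6, or 11.1%, and among the 26 higher by at least 5 in 4, or 15.38%. The pair alone was common, in 19.3% of all promoters, 20.9% of those called higher and 38.9% of those higher by at least 3.

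**Figure D2:**
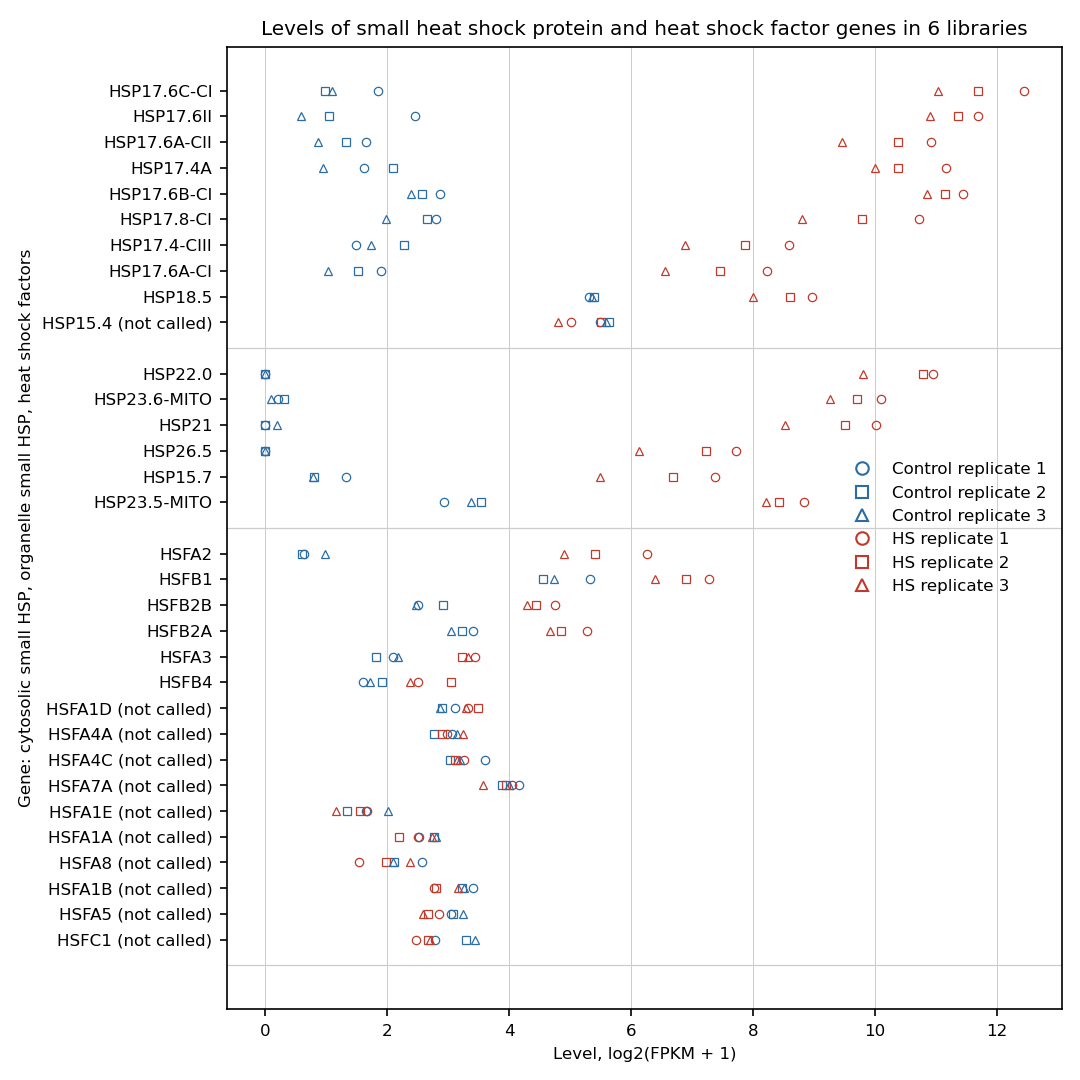
Levels, as log2(FPKM + 1) on the horizontal axis, of 10 cytosolic and 6 organelle small heat shock protein genes and of 16 heat shock factor genes. Each symbol is 1 library, blue for Control and red for HS. Apart from HSP15.4, each small heat shock protein gene has its red symbols far to the right of its blue ones, while 10 of the 16 heat shock factors were not called.

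AT3G07365, annotated as a noncoding RNA, had the highest rise of any gene, from 1.13, 3.6e-13 and 2.56 to 5142, 3581 and 3019 FPKM. Its span of 453 bases (chr3:16984335-16984787, plus strand, TAIR10.1) lies wholly inside HSP17.4 (chr3:16984118-16984867, minus strand). HSP17.4 itself went from 2.09, 3.3 and 0.941 to 2303, 1329 and 1021 FPKM. Use of strand in counting is not stated, so reads of the pair cannot be told apart.

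The larger chaperones were higher as well. Taking the small heat shock protein, HSP100 and HSP90, HSP70, cochaperone and chaperonin lists together, 59 of the 62 genes tested were higher and none lower. Of all genes tested, 13.2% were higher and 13.5% lower. HSP101, the disaggregase needed for acquired thermotolerance, went from 6.21, 5.74 and 7.76 to 303, 187 and 129.9 FPKM, a log2 change of 4.70 (SE 0.27, adjusted p 2.0e-05). HSP90.1, the inducible cytosolic HSP90, went from 18.2, 20.7 and 21.9 to 1125, 781 and 597 FPKM, a log2 change of 5.25 (SE 0.21, adjusted p 2.7e-06). The other cytosolic HSP90 genes moved less, with log2 changes of 2.15 for HSP90.2 and 1.22 for HSP90.3, and HSP90.4 at 0.27 did not pass the test. These near-identical copies may share reads, so their separate values are uncertain.

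HSP90 of the chloroplast (HSP90.5), mitochondria (HSP90.6) and endoplasmic reticulum (HSP90.7) rose by 2.52, 2.53 and 2.15 on the log2 scale. HSP90.5 went from 104, 112 and 107 FPKM in Control to 635, 626 and 611 FPKM in HS, with little spread in either group. The ClpB proteins of plastids (CLPB3) and mitochondria (CLPB4), relatives of HSP101, rose by 2.13 and 2.64.

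All 11 HSP70 genes tested were higher, beside 13.2% of all genes, with a median log2 change of 1.55. AT1G16030, known as HSP70-5, rose from 3.73, 2.7 and 3.35 to 383, 225 and 143 FPKM, and HSP70-4 (AT3G12580) rose from 49.7, 49.5 and 59.2 to 1993, 1490.0 and 1359 FPKM. The constitutive cytosolic HSC70-1 was already at 852, 735 and 879 FPKM and reached 1926, 1718 and 1306 FPKM, the smallest change of the family at 0.99. HSP70-18 and BIP3 were under the filter and were not tested.

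Cochaperones hand clients between these machines. Of 17 such genes and acclimation factors, 16 were higher and none lower, beside 13.2% and 13.5% of all genes, with a median of 2.48. ROF2, a peptidyl-prolyl isomerase that binds HSP90.1, went from 7.55, 8.69 and 8.54 to 1128, 772 and 534 FPKM, a log2 change of 6.39 (SE 0.23, adjusted p 2.2e-06). HSA32, which maintains acquired thermotolerance, rose by 5.57, and HOP3, which bridges HSP70 and HSP90, rose by 5.47. MBF1C, a transcriptional coactivator of the heat response, went from 11.1, 14.7 and 14.1 to 560.1, 369 and 229.9 FPKM. HSBP, a negative regulator that binds heat shock factors, was not called at -0.13.

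The chaperonins, closed barrels in which proteins fold, were all 8 called higher, beside 13.2% of all genes, with a median of 2.34. CPN60B2, a plastid subunit, went from 61.8, 74.3 and 75.9 to 1034, 1037 and 921 FPKM, a log2 change of 3.80 (SE 0.11, adjusted p 8.5e-07). Its relative CPN60B1 moved from 187, 219 and 205 to 303, 358 and 331 FPKM, a log2 change of 0.69. The mitochondrial HSP60 and its lid CPN10 rose by 2.83 and 2.52.

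Most heat shock factor genes were not called. Of 21 genes, 16 were tested, 6 were higher and none lower, and the median change was -0.024, which turned to 0.075 without Control replicate 1 and 0.049 without Control replicate 3. HSFA2, which prolongs the heat response, rose from 0.554, 0.52 and 0.967 to 76.1, 41.4 and 28.8 FPKM, a log2 change of 4.79 (SE 0.31, adjusted p 3.6e-05). As its Control values were all under 1 FPKM, HSFA2 passed the filter only through HS and could not have been called lower. HSFB1, HSFB2A and HSFB2B, class B factors that act as repressors, rose by 1.98, 1.70 and 1.86. HSFA3 rose by 1.3 and HSFB4 by 0.90, the latter not called without HS replicate 2 (0.70, adjusted p 0.061). The class A1 factors that start the response were not called, with log2 changes of -0.22 for HSFA1A, -0.39 for HSFA1B, 0.42 for HSFA1D and -0.21 for HSFA1E. Among the 257 tested genes whose annotation names a transcription factor, 28 (10.9%) were higher and 32 (12.5%) lower. These shares were slightly under the 13.2% and 13.5% of all genes. The 4 highest rises among these factors were HSFA2, HSFB2B, HSFB2A and HSFA3. The fifth was AT2G40435, a SCREAM-like protein, with a log2 change of 1.13, which was not called without HS replicate 2 (1.05, adjusted p 0.068).

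Most genes of protein folding in the endoplasmic reticulum were higher as well. This compartment has its own stress pathway, in which the membrane-bound factor BZIP28 and the spliced factor BZIP60 induce lumenal chaperones. Of 17 genes, 16 were tested, 14 were higher and none lower, beside 13.2% and 13.5% of all genes, with a median of 1.78. The list may share genes with the chaperone lists above. The lumenal HSP70 genes BIP1 and BIP2 rose from 86.6, 80.6 and 102 to 505, 567 and 662 FPKM and from 66.6, 67.3 and 83.8 to 407, 488 and 636 FPKM. The 2 copies are close in sequence, so reads may be divided between them. ERDJ3A, their J-domain partner, rose by 3.64, and the lectin chaperones CNX1 and CRT1A rose by 2.42 and 1.88. BZIP28 rose by 0.92, while BZIP60 was at 0.32 and CRT3 at 0.11, neither called.

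The 3 HS libraries did not hold these groups in the same order. All 15 small heat shock protein genes called higher had their highest HS value in replicate 1 and their lowest in replicate 3. Of the 14 endoplasmic reticulum genes, 12 had their highest HS value in replicate 3 and 12 their lowest in replicate 1. Averaged over genes, HS replicate 1 stood 0.64 above the gene's HS mean for cytosolic small heat shock proteins and -0.22 from it for endoplasmic reticulum folding, on the log2 scale. Over all 2482 genes called higher, 764 were highest in replicate 1, 505 in replicate 2 and 1213 in replicate 3. In each of these 15 and 14 genes the HS and Control values did not overlap, beside 43.7% of all genes. They were picked for being called higher in this contrast, so the lack of overlap is no separate support.

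**Figure D3:**
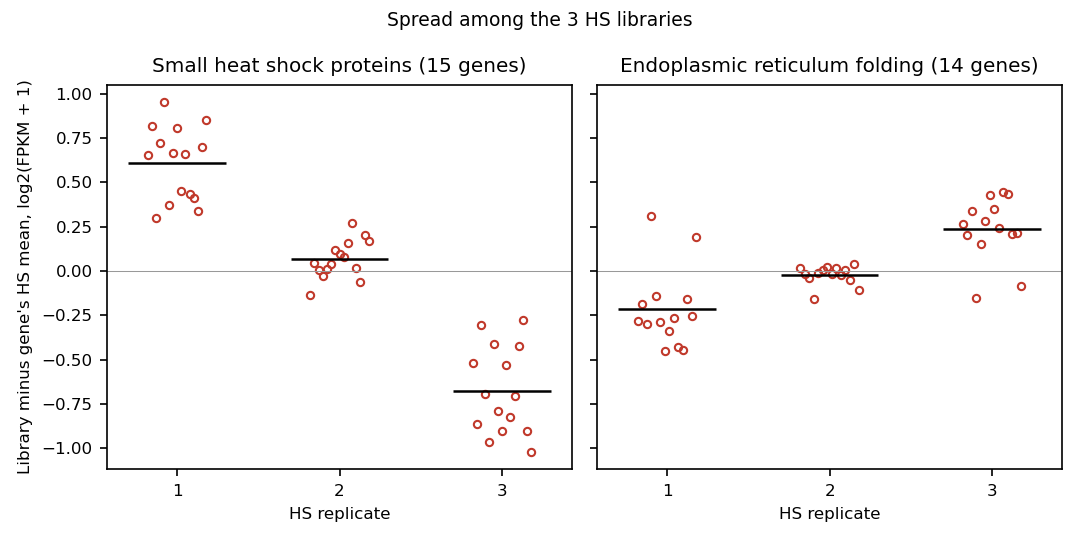
Spread among the 3 HS libraries. Each circle is a gene called higher, placed by its log2(FPKM + 1) in an HS library minus its mean over the 3 HS libraries, and black bars are means over genes. The 15 small heat shock protein genes lie highest in replicate 1, and 12 of the 14 endoplasmic reticulum genes lie highest in replicate 3.

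Other genes linked with heat protection moved singly. GOLS1, which makes galactinol for protective sugars, went from 18.7, 18.05 and 16.5 to 1082, 732 and 514 FPKM, a log2 change of 5.31 (SE 0.23, adjusted p 4.6e-06), and GOLS2 rose from 0.315, 0.164 and 0.717 to 6.69, 3.05 and 6.85 FPKM. The raffinose synthase RS5 was not called at 0.15, and 3 of the list's 6 genes were under the filter. APX2, a cytosolic ascorbate peroxidase that removes hydrogen peroxide, was listed at 0 in every Control library and at 247, 192 and 86.1 FPKM in HS. Like GOLS2, which was under 1 FPKM in every Control library, APX2 passed the filter only through HS and could not have been called lower. APX1, the abundant isoform, rose from 918, 859 and 957 to 1741, 1697 and 2067 FPKM, a log2 change of 1.005 (SE 0.11, adjusted p 4.7e-04). In the whole list of 12 reactive oxygen genes, 3 were higher and 2 lower, beside 13.2% and 13.5% of all genes. The list's median was -0.12. The 2 lower calls were lost without Control replicate 1, without HS replicate 2 or with no filter on low values. Without HS replicate 2 only 1 gene was called higher. There FSD1 lost its call, at 0.47, while APX2 failed the filter and was not tested. DREB2A, a factor that induces HSFA3, went from 9.05, 13.7 and 10.1 to 34.6, 19.8 and 18.45 FPKM, a log2 change of 1.04 that was not called without Control replicate 1 (0.93, adjusted p 0.051).

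Splicing factors of the SR family, which bind exonic enhancers, included 9 genes higher and 1 lower of 20, with a median of 0.31. Over all genes 13.2% were higher and 13.5% lower. SR45A went from 30.0, 28.1 and 34.5 to 297, 218 and 176 FPKM, a log2 change of 2.83 (SE 0.18, adjusted p 3.6e-05). SR30 went from 78.8, 70.5 and 76.4 to 447, 354 and 356 FPKM, a log2 change of 2.33 (SE 0.12, adjusted p 9.8e-06). SC35, SCL33 and RS31A rose by 1.26, 1.15 and 1.09. SR34, from the same subfamily as SR30, was not called at 0.09.

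**Figure D4:**
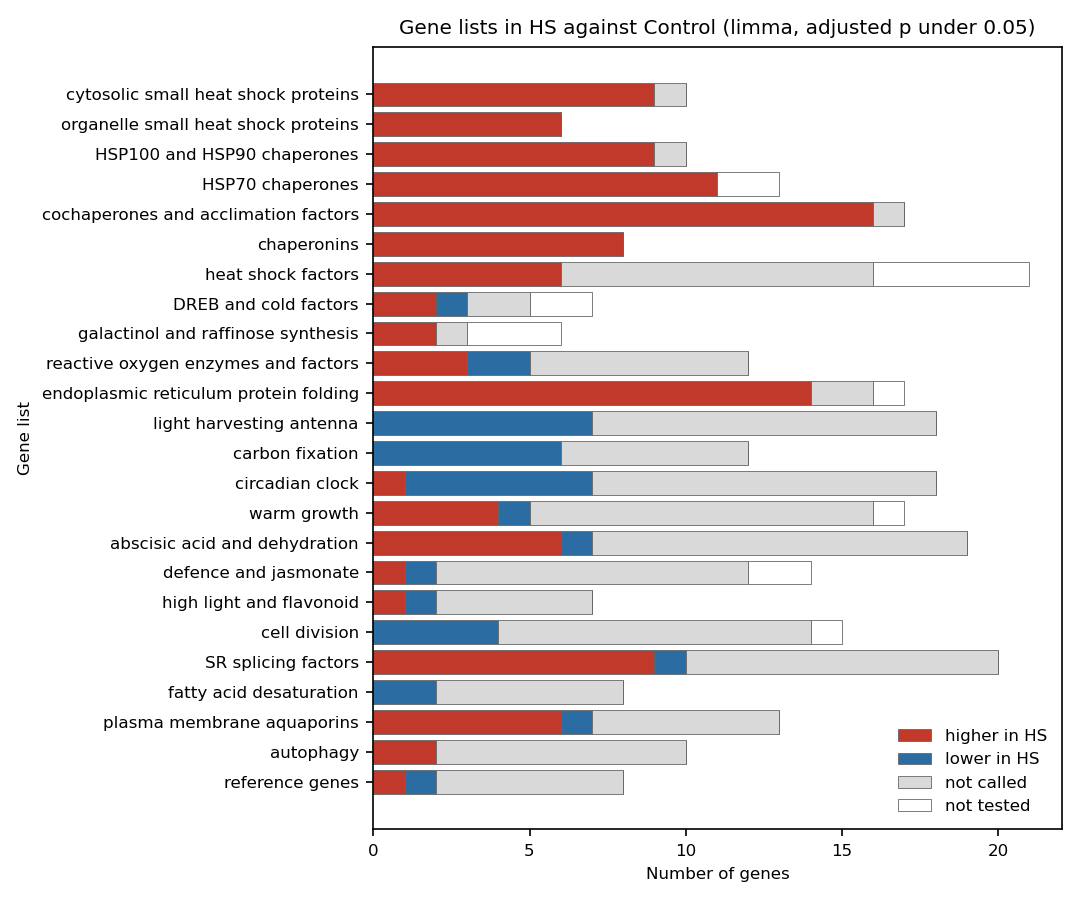
Number of genes in each of 24 lists that were higher in HS (red), lower (blue), not called (grey) or not tested (white). Red fills the chaperone and endoplasmic reticulum lists, and the antenna, carbon fixation, cell division and desaturation lists hold blue without red.

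The light harvesting antenna list had 7 of 18 genes lower and none higher, with a median of -0.32, beside 13.5% of all genes called lower. LHCB2.3, a trimer-forming antenna protein of photosystem II, fell from 793, 880.0 and 838 to 186, 287 and 276 FPKM, a log2 change of -1.77 (SE 0.16, adjusted p 2.3e-04). The most abundant called member, LHCB1.3 (annotated as CAB1), fell from 15432, 14298 and 15643 to 9905, 11374 and 10314 FPKM, the largest fall in FPKM of any called gene, at a log2 change of -0.52. LHCA4 and LHCB1.1 (CAB2) fell by 0.48 and 0.56 on the log2 scale and were also among the 5 largest falls in FPKM, with GRP3S, a glycine-rich protein, and RBCS2B. With no filter on low values these 3 antenna genes were not called (adjusted p 0.069 to 0.25), LHCB3 and LHCB5 were not called either, and the list's count of 7 fell to 2. It was 5 to 9 under the other alternatives. Antenna copies are near-identical, and their separate values are uncertain.

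Carbon fixation genes had 6 of 12 lower, beside 13.5% of all genes, and none higher, with a median of -0.37. PRK, the phosphoribulokinase of the Calvin cycle, fell from 1074, 1078 and 1074 to 593, 567 and 524 FPKM, a log2 change of -0.94 (SE 0.09, adjusted p 2.8e-04). The glyceraldehyde-3-phosphate dehydrogenase genes GAPA1 and GAPA2 fell by 0.76 and 0.74. RBCS2B, a Rubisco small subunit, was called at -0.41 but lost the call under 4 of the 6 single omissions, with adjusted p of 0.051 to 0.094 without Control replicates 2 or 3 or HS replicates 2 or 3. Rubisco activase (RCA), a heat-labile regulator, was not called at -0.20.

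In the circadian clock, 1 gene of 18 was higher and 6 were lower, beside 13.2% and 13.5% of all genes. The list's median was -0.15. The morning factor LHY fell from 85.9, 74.6 and 75.9 to 30.6, 21.4 and 20.04 FPKM, a log2 change of -1.70 (SE 0.16, adjusted p 2.7e-04). Its partner CCA1 was not called, at 63.6, 69.8 and 79.0 FPKM in Control and 133, 95.9 and 75.0 FPKM in HS, a log2 change of 0.48 (adjusted p 0.11). Without HS replicate 3 CCA1 was called higher, at 0.67 (adjusted p 0.02). RVE8, an activator of evening genes, fell by 1.11, PRR5 by 1.04 and ELF4 by 0.92, while ZTL and LNK2 fell by 0.64 and 0.71. LUX was the one clock gene called higher, at 0.48, and it was not called without Control replicates 1 or 2 or HS replicate 2 (0.44 to 0.46, adjusted p 0.058 to 0.075).

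Genes of growth in the warm had 4 of 16 higher, beside 13.2% of all genes, and 1 lower, with a median of 0.21. Without HS replicate 2 or without Control replicate 3 only PIF4 was called, as XTH15, PIF1, PIF7 and PHYB lost their calls (adjusted p 0.061 to 0.13 in those fits). PIF4, the factor that drives elongation at warm temperature, went from 52.2, 35.6 and 45.4 to 87.1, 84.3 and 95.5 FPKM, a log2 change of 1.001 (SE 0.15, adjusted p 0.0019). Its relative PIF5 was not called, at 95.3, 83.7 and 82.6 FPKM in Control and 86.8, 84.3 and 89.5 FPKM in HS. The auxin synthesis gene YUC8, a target of PIF4, was not called at 0.22. PHYB, the photoreceptor that also senses temperature, was lower at -0.49, and was not called without HS replicate 2 or Control replicate 3 (-0.46 and -0.44, adjusted p 0.068 and 0.075).

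Genes responding to abscisic acid and water loss had 6 of 19 higher and 1 lower, beside 13.2% and 13.5% of all genes. The count of higher genes was 4 to 6 under the alternatives. It was 4 without Control replicate 2 or HS replicates 1, 2 or 3, where LTI65 and HAI1 were not called (adjusted p 0.053 to 0.12). The list's median was 0.43. KIN1, a cold and abscisic acid gene, went from 0.535, 1.51 and 0.645 to 33.8, 26.49 and 18.2 FPKM, a log2 change of 3.83 (SE 0.26, adjusted p 4.7e-05). The dehydrins ERD10 and COR47 rose by 2.16 and 1.58. COR6.6, the near copy of KIN1, rose by 1.41. P5CS1, which makes proline, fell from 32.8, 27.7 and 29.0 to 9.01, 9.51 and 16.9 FPKM, a log2 change of -1.32 (SE 0.22, adjusted p 0.0034). The hormone synthesis gene NCED3 was not called, at 0.26.

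The 12 largest falls named by size held genes of several roles. IGMT2 and IGMT3, methyltransferases of indole glucosinolates, went from 61.3, 5.81 and 30.4 to 0.591, 0.123 and 1.15 FPKM and from 55.1, 16.4 and 32.5 to 2.27, 3.21 and 4.23 FPKM. The Control libraries of these genes were spread widely, with replicate 1 highest and replicate 2 lowest. The P450 CYP81F2 of the same pathway stood at 55.9, 3.59 and 20.3 FPKM in Control and 2.05, 0.218 and 2.02 FPKM in HS. Its call was lost without Control replicates 1 or 3 or HS replicate 2, with log2 changes of -2.14, -2.85 and -2.54 and adjusted p of 0.055 to 0.092. PLA2A, a lipase induced by pathogens, stood at 44.0, 6.47 and 14.8 FPKM in Control and 3.89, 1.12 and 0.694 FPKM in HS and lost its call without HS replicate 2 (-2.60). AT3G18250, a putative membrane lipoprotein, stood at 59.1, 7.52 and 56.3 FPKM in Control and 1.996, 1.59 and 1.43 FPKM in HS. Not all of these falls recurred in the heat contrasts of the mutant and of salt. AT3G18250 was at 0.66 in the mutant and 0.37 on salt, and PLA2A at -0.69 and 0.59, none called. CYP81F2 was called lower in the mutant at -1.27 but not on salt at -0.34. IGMT2 and IGMT3 were called lower in both. In the list of defence and jasmonate genes 1 of 12 was higher and 1 lower, beside 13.2% and 13.5% of all genes. The list's median was 0.14. WRKY33 was the lower one at -1.34 and was not called without HS replicate 2 or Control replicate 3 (adjusted p 0.061 and 0.052).

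TIR (AT1G72930), a Toll/interleukin-1 receptor-like protein, fell from 41.7, 49.7 and 46.1 to 4.09, 3.56 and 5.95 FPKM, a log2 change of -3.10 (SE 0.17, adjusted p 1.7e-05), with close replicates. LEA3, a late embryogenesis abundant protein of stressed leaves, fell from 55.95, 96.3 and 80.0 to 10.9, 9.28 and 4.53 FPKM. IRT1, the iron transporter of the root epidermis, fell from 17.2, 53.7 and 25.6 to 3.88, 2.4 and 4.22 FPKM, a log2 change of -2.75 (SE 0.37, adjusted p 0.0012). Among the other root markers EXPA7, of root hairs, rose by 1.38 and SCR, of the endodermis, was at -0.57, so root genes did not move one way. SCR was not called without HS replicate 2 or Control replicate 3 (adjusted p 0.053 and 0.061). AT3G52535, annotated as other RNA, completes the 12 with 1.37, 22.6 and 41.6 FPKM in Control and 0.89, 0.455 and 0.855 FPKM in HS, and lost its call without any of the HS replicates (adjusted p 0.067 to 0.11). Its heat change was 1.92 in the mutant, not called, and -3.38 on salt, called lower.

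The deepest fall and 2 others of the 12 belong to genes that lie wholly or almost wholly over a gene on the opposite strand. AT3G18250 and AT3G52535 share only 31 and 6 bases with such a gene. DIR1, a lipid transfer protein of systemic resistance, went from 94.5, 83.0 and 83.5 to 2.93, 4.4e-05 and 4.1e-06 FPKM. All 813 bases of DIR1 (chr5:19646028-19646840, minus strand) lie within AT5G48480 (chr5:19644539-19646840, plus strand), a glyoxalase I family gene that rose from 26.1, 19.1 and 21.2 to 41.0, 47.5 and 55.5 FPKM. AT5G42825, of unknown function, went from 15.66, 8.63 and 14.8 to 1.4e-05, 2.8e-05 and 1.7e-05 FPKM and shares 981 of its 994 bases with U2AF35B, a splicing factor gene that rose by 0.41. AT1G55152 went from 12.8, 3.21 and 14.4 to 9.6e-05, 2.0e-10 and 2.0e-04 FPKM and lies wholly within AT1G55160, which was at -0.02 and not called. AT5G42825 and AT1G55152 passed the filter only through Control and could not have been called higher. Without a stated use of strand, reads within each pair cannot be told apart. Over the 12611 tested genes that share no base with another annotated gene, 3399 were called, a selection added after the data were seen.

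A few genes of other roles stood out by size. GASA1, a gibberellin-regulated cell wall peptide, was among the 5 largest rises in FPKM, from 1035, 1534 and 1363 to 6844, 4927 and 4535 FPKM, a log2 change of 2.05 (SE 0.19, adjusted p 2.3e-04). AT4G39363, a snoRNA, was listed at 0 in every Control library and at 1444, 1011 and 1198 FPKM in HS, and passed the filter only through HS. On salt it went from 0 in all S libraries to 3357, 661 and 926 FPKM in S+HS. In the mutant it was erratic, at 562, 0 and 0 FPKM in Control and 896, 3472 and 0 FPKM in HS, and was not called. It was also at 1567, 0 and 0 FPKM in HL, without heat. Among the 257 genes whose annotation text names a transcription factor, which leaves out factors such as LHY and WRKY33, PLIM2a and WRKY6 had the deepest falls, at -1.28 and -1.12. PLIM2a stood at 1.57, 1.97 and 1.34 FPKM in Control and 0.184, 1.7e-05 and 0.0494 FPKM in HS. It passed the filter only through Control and could not have been called higher. A noncoding RNA on the opposite strand shares 1095 of its 1338 bases. AT2G44730 and AT5G19970 followed at -0.96 and -0.84, with AT1G63100 at -0.93, which lost its call without any 1 library except HS replicate 3 (adjusted p 0.065 to 0.13).

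Cell division genes had 4 of 14 lower, beside 13.5% of all genes, and none higher, with a median of -0.50. The count fell to 0 without HS replicate 2, to 1 without Control replicate 1 or Control replicate 3, to 2 without Control replicate 2 or with no filter, and rose to 7 without HS replicate 3. KNOLLE (annotated as SYP111), which fuses the new wall between daughter cells, fell from 16.8, 19.0 and 19.7 to 5.7, 8.04 and 12.9 FPKM, and was not called without HS replicate 2 (adjusted p 0.055). CDKB2-2, CYCB1-1 and CYCB1-2 were the other 3, at -0.66, -0.81 and -0.80. Without Control replicate 3 they were at -0.70, -0.85 and -0.85 and not called (adjusted p 0.053, 0.056 and 0.066). FAD8, a chloroplast desaturase that is unstable in the warm, fell from 64.7, 79.5 and 78.7 to 28.3, 29.5 and 30.6 FPKM, a log2 change of -1.3 (SE 0.12, adjusted p 2.0e-04), and 2 of 8 desaturation genes were lower. That count was 1 without Control replicate 2, Control replicate 3 or HS replicate 2.

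Plasma membrane aquaporins, which are water channels, had 6 of 13 higher and 1 lower, beside 13.2% and 13.5% of all genes. The list's median was 0.32. The lower gene was PIP2-8 at -0.56, which lost its call under several alternatives, including without Control replicates 1, 2 or 3 (adjusted p 0.061 to 0.16). PIP2-3 went from 53.0, 71.2 and 64.2 to 584, 393 and 236 FPKM, a log2 change of 2.58 (SE 0.28, adjusted p 5.3e-04). Of 10 autophagy genes, ATG8H and ATG8A were higher, at 1.06 and 0.86, and none was lower. ELIP1, a chlorophyll-binding stress protein, rose by 1.90, the one higher gene of 7 in the high light and flavonoid list, whose median was 0.12. ELIP2 was the one lower gene, at -1.38, and was not called without Control replicates 2 or 3 or HS replicates 2 or 3. Among 8 genes often used as references, GAPC1 rose by 0.81 and ACT2 fell by 0.79, while PP2AA3 at 0.15 and UBC21 at -0.08 were not called.

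AT5G57150, the bHLH35 gene mutated in the other genotype of the series, rose in heat from 21.99, 20.9 and 27.7 to 75.3, 87.3 and 93.4 FPKM in Col-0, a log2 change of 1.82 (SE 0.14, adjusted p 8.7e-05). The gene lies at chr5:23152174-23155066 on the plus strand.

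By gene structure, 10.7% of the protein-coding genes called higher had no intron, against 15.8% of those called lower and 13.1% of all tested. Among genes changed by at least 1 on the log2 scale the shares were 14.02% of the higher and 20.2% of the lower, so the higher genes stood below all tested in the one count and above in the other. Noncoding RNAs annotated as lncRNA had 33 of 357 higher and 28 lower, beside 13.2% and 13.5% of all genes.

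The same heat contrast was read in 3 other pairs of groups that share no library with HS and Control. In the bHLH35 mutant 3557 genes were called (19.2%), 9.09% of those tested higher and 10.1% lower. Of the genes called higher in Col-0, 56.1% were called higher there too, which is 82.8% of the mutant's higher genes, and of the lower genes 59.8% were called lower, which is 80.7% of the mutant's. The test of the difference between genotypes called 0 of 19554 genes in limma, with 398 (2.04%) at an unadjusted p under 0.05. The smallest p belonged to AT1G19394, which was listed at 0 in both Col-0 groups and in the mutant's HS libraries and at 2.49, 3.76 and 2.3 FPKM in its Control libraries, with an adjusted p of 0.4. It shares 893 of its 898 bases with AT1G19396 on the same strand. Leaving out 1 library gave 2 calls at most, without replicate 1 of the mutant's HS group. AT5G57150 itself was listed in the mutant at 5.68, 4.9 and 3.28 FPKM in Control and 8.57, 8.93 and 12.4 FPKM in HS, from a table that may be normalized separately. Its change there was 0.97 (adjusted p 0.022 in limma), and the difference of -0.85 was not called.

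On salt, S+HS against S called 6333 genes (32.8%), 14.2% of those tested higher and 18.6% lower. Of the genes called higher in Col-0 without salt, 60.8% were called higher on salt, which is 54.9% of the higher genes there, and of the lower ones 62.0% were called lower, which is 43.8% of the lower genes there. The difference between the responses was called for 4 of 20035 genes (0.02%). NIA1, a nitrate reductase, fell from 521, 464 and 412 to 163, 127 and 131 FPKM without salt, while on salt it was at 98.1, 100.3 and 108 FPKM in S and 79.4, 82.1 and 97.4 FPKM in S+HS. NRT1.8, a nitrate transporter, was at 3.74, 2.78 and 4.39 FPKM in Control and 2.87, 2.14 and 1.97 FPKM in HS without salt and was higher on salt, from 4.29, 3.73 and 5.69 to 14.8, 21.3 and 27.5 FPKM. LBD37, a repressor of nitrate genes, differed by 0.88 between the responses, and AT1G14010, a GOLD family protein, by -1.13. The count of 4 fell to 0 with a replicate block, with no variance trend or with no filter on low values. It also fell to 0 without Control replicate 1, HS replicates 2 or 3, S replicate 2 or S+HS replicates 2 or 3, and rose to 810 without HS replicate 1 and 140 without S+HS replicate 1.

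In high light, HL+HS against HL called 101 genes (0.535%). This count says little about the size of changes, because some large ones were not called. ATHSP22.0 at 5.87 and AT1G53540 at 3.80 were not called (adjusted p 0.065 and 0.089 in limma), while HSP18.2 at 7.37 was (adjusted p 0.042). The HL libraries of some genes spread widely, as for AT3G07365 at 350, 822 and 3068 FPKM. Of the genes called higher in HS, 2.05% were called higher there, which is 82.3% of the higher genes there, and of the lower ones 1.03% were called lower, which is 66.7%. Called or not, 71.4% of the higher genes had the same sign there, beside 36.8% of all genes above 0, and 83.8% of the lower, beside 63.2%. The difference from the response in normal light was called for 672 of 19778 genes (3.4%), 260 higher (1.31%) and 412 lower (2.08%). With an absolute difference of at least 1, 416 genes (2.1%) were called. Under median-of-ratios scaling 49.2% of the calls were higher, beside 38.7% as deposited. The median change of the cytosolic small heat shock proteins was 2.33 in high light. HSP17.6II was already at 244, 482 and 1522 FPKM in HL and at 3166, 2813 and 2560.0 FPKM in HL+HS, so the levels with both stresses overlapped those of heat alone. The HL libraries differ widely among themselves for this gene, with replicate 3 highest. FBA5, a fructose-bisphosphate aldolase, went the other way. It fell in heat from 529, 584 and 573 to 128, 116 and 101 FPKM, a log2 change of -2.28 (SE 0.11, adjusted p 8.4e-06), yet stood at 215, 619 and 555 FPKM in HL and 607, 731 and 633 FPKM in HL+HS. AT5G57150 was at 0.62 in high light, not called (adjusted p 0.088 in limma), with a called difference of -1.20 (adjusted p 0.0055). The count of 672 fell to 329 with a replicate block, to 416 without a variance trend and to 254 without HL+HS replicate 2. It was also lower by more than 1.5 times without HS replicate 2 (300), HS replicate 3 (376), Control replicate 1 (326), 2 (387) or 3 (340), HL replicate 3 (423) and HL+HS replicate 3 (375).

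**Figure D5:**
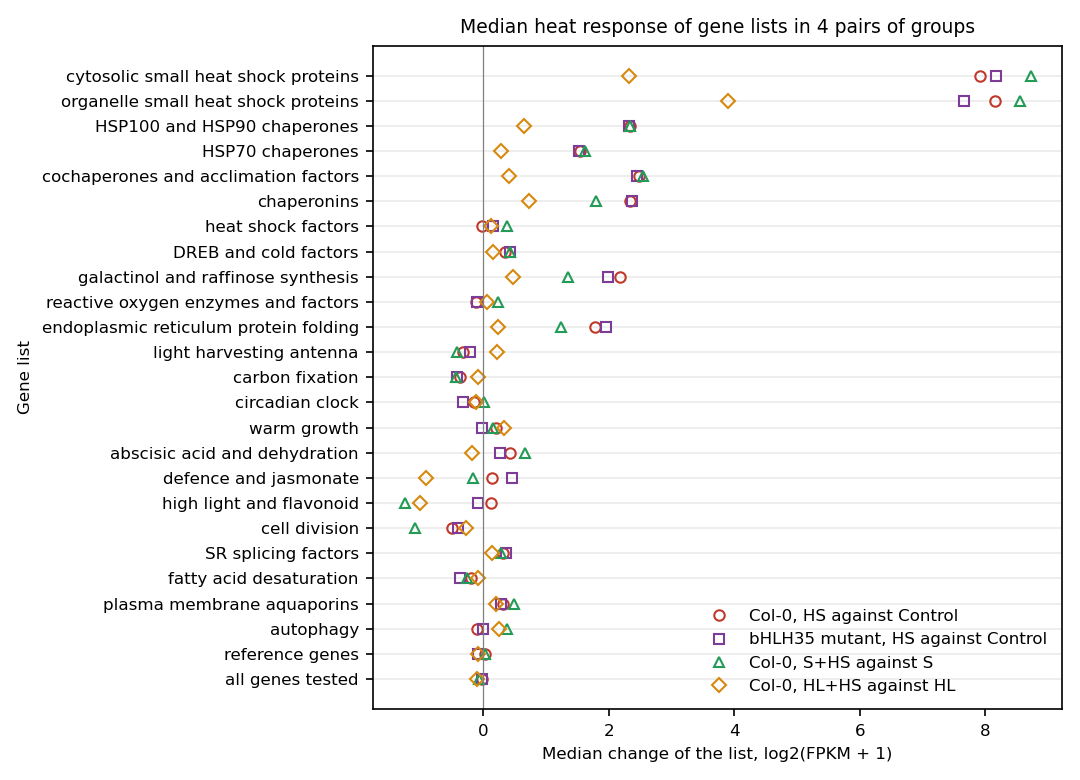
Median log2(FPKM + 1) change of each gene list in heat, for Col-0 HS against Control (circles), the bHLH35 mutant (squares), Col-0 on salt (triangles) and Col-0 in high light (diamonds), with the median of all genes at the bottom. For cytosolic small heat shock proteins the medians are 7.91, 8.18, 8.72 and 2.33, and the diamonds lie lowest in all the chaperone lists.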

How the data were processed

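RNA-seq of 7-day Arabidopsis seedlings was read from 2 deposited tables of FPKM, 1 per genotype, with 6 of 48 libraries in the main comparison. Per the submitters' processing notes, the authors used FastQC 0.11.9, Trim Galore 0.6.4, HISAT2 2.2.1 and the TAIR10 build; the tool that made the deposited FPKM values, its annotation and its use of strand are not given in the sources used here.

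Values were tested as log2(FPKM + 1), so changes of low genes are understated. Genes reaching 1 FPKM in 3 or more of the libraries fitted entered limma 3.58.1 in R 4.3.3, with a variance trend, two-sided and with Benjamini-Hochberg adjustment over all genes tested; the script was tested on simulated data. Differences between responses were interaction terms over 4 groups of 3 libraries. The 2 genotype tables may be normalized separately, so levels were not tested across them.

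Depth came from the steps of low FPKM values: 94.2% to 95.8% of low values came out whole within 0.1 of a fragment. A count of 3 fragments on 1 kb corresponds to 0.111 to 0.140 FPKM, which covers counting error only. Files hold no counts, so no count test was run.

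Members and the 24 gene lists were chosen with earlier results of these data known. Named genes were list members, the 12 largest called log2 changes each way whose groups did not overlap and whose higher group averaged 5 FPKM or more, the 5 largest FPKM changes and 5 largest transcription factor changes each way, up to 3 genes each way per difference between responses, and AT5G57150; classes and overlapping partners named outside this rule were chosen after their values were seen. The motif of 1 pair of units was also added after the data were seen. Gene positions and promoters are from RefSeq TAIR10.1. Alternatives were the pseudocount, filter, scaling, variance trend, replicate block, libraries in the fit, a log2 threshold of 1 and single libraries left out.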

Additional observations from a re-analysis of the deposited data

Results flagged for a closer look

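The tests of the difference between heat responses singled out 10 genes by the naming rule. All values are the heat change elsewhere minus the change in HS against Control, on the log2(FPKM + 1) scale, and no explanation was tested.

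Against heat on salt 4 genes were called, and none with a replicate block, with no variance trend or with no filter on low values. NRT1.8 (AT4G21680) differed by 2.44 and NIA1 (AT1G77760) by 1.48. LBD37 (AT5G67420) differed by 0.88, with 109, 97.7 and 98.3 FPKM in Control, 73.2, 69.1 and 70.1 FPKM in HS, 57.7, 62.6 and 57.4 FPKM in S and 73.5, 82.5 and 73.6 FPKM in S+HS. AT1G14010 differed by -1.13, with 21.99, 22.99 and 24.5 FPKM in Control, 52.0, 58.3 and 69.3 FPKM in HS, 35.6, 35.9 and 36.3 FPKM in S and 45.7, 38.7 and 39.6 FPKM in S+HS.

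Against heat in high light, HSP17.6II (AT5G12020) differed by -7.63 and FBA5 (AT4G26530) by 2.93. The noncoding AT3G07365, which lies inside HSP17.4, differed by -8.45, with 350.3, 822 and 3068 FPKM in HL and 4801, 6032 and 5238 FPKM in HL+HS. DIR1 (AT5G48485) differed by 4.62, with 36.5, 55.6 and 34.8 FPKM in HL and 10.8, 28.04 and 18.2 FPKM in HL+HS.

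The other 2 rest on libraries listed at 0. The snoRNA AT4G39363 differed by -13.77, a fitted value that is no fold, with 1567, 0 and 0 FPKM in HL and 0 in all HL+HS libraries. AT2G08530 differed by 5.07, with 0, 13.8 and 0 FPKM in Control, 0 in all HS and HL libraries and 8.07, 14.1 and 17.84 FPKM in HL+HS.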

How the results depend on the processing

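The count of 5015 genes called in heat stayed between 4064 and 6405 under another pseudocount, filter, scaling, variance trend or set of libraries, was 1561 with an absolute log2 change of at least 1, and ran from 2894 to 4770 when 1 library was left out. With the replicate number as a block 5156 genes were called, 4612 of them shared with the fit without it. Deviations of same-numbered Control and HS libraries correlated at 0.114, 0.0855 and 0.117; each library correlated best with its own number, a hint from the data only. Not every pair passed 0.1 and the labels do not say what a number shares, so the libraries were not treated as paired. The genotype difference gave 3 calls with no filter, 1 with no variance trend, 0 with the block and 0 to 2 when 1 library was left out. The salt difference gave 0 calls with no filter, no variance trend or the block, 9 at a mean of at least 5 FPKM, 51 with all Col-0 libraries in the fit and 0 to 810 when 1 library was left out. The high light difference gave 416 calls with no variance trend, 329 with the block, 1985 with all Col-0 libraries, 416 with an absolute log2 change of at least 1 and 254 to 876 when 1 library was left out; causes were not tested. Of 177 named genes, 131 kept direction and side of the threshold under every alternative that tested them, the log2 threshold of 1 left out. A gene that failed the filter of an alternative was not counted as changed there. Genes such as ATHSP22.0, HSP21 and APX2 failed it once an HS library was left out and were not tested. Another 43 genes lost a call at least once and 2 gained one. AT1G55160, never called, ran from -0.086 to 0.088 over single omissions. It was at 0.088 when Control replicate 1 was dropped and at 0.015 when HS replicate 3 was. The median of organelle small heat shock proteins was 5.08 to 5.70 without single HS replicates, where the filter left 2 of the 6 genes, and 11.03 at a pseudocount of 0.1. The DREB median turned to -0.15 with no filter. With 3 libraries a group, small changes and genes near 1 FPKM are poorly resolved.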

Other observations

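Some gene classes outside the lists are given here, and all were chosen after their values were seen. Of 41 mitochondrion-encoded genes tested, 33 were higher in HS (80.5%, beside 13.2% of all genes) and none lower, with a median log2 change of 1.48. The summed FPKM of these tested genes was 76.0, 91.8 and 70.5 in the Control libraries and 555, 382 and 279 in the HS libraries. All mitochondrion-encoded genes, tested or not, held 0.0103%, 0.0126% and 0.0097% of FPKM in Control. In HS they held 0.0839%, 0.2005% and 0.0378%, so HS replicate 2 was highest by that measure and replicate 1 by the sum. Of 46 plastid-encoded genes none was higher and 6 were lower (13.04%, beside 13.5% of all genes). Nuclear genes annotated as ribosomal proteins had 108 of 314 higher and 6 lower, with a median of 0.37. DEA(D/H)-box RNA helicases, which remodel RNA, had 9 of 18 higher and 2 lower.

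Histone genes, which package new DNA, had 19 of 28 lower (67.9%, beside 13.5% of all genes) and none higher, with a median of -0.73. Many are near-identical copies, so values of single genes are uncertain. Immune receptors of the TIR-NBS-LRR class had 19 of 35 lower and 1 higher, and those of the CC-NBS-LRR class 8 of 22 lower and none higher. The cause of these shifts was not tested.

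The order of the HS libraries seen in Col-0 was partly shared with the mutant. In the mutant's HS group the same 9 cytosolic and 6 organelle small heat shock protein genes were all highest in replicate 1, and 12 of the 14 endoplasmic reticulum genes were highest in replicate 3. Across genes, which are not independent replicates, deviations of same-numbered HS libraries of the 2 genotypes correlated at 0.497, 0.105 and 0.302, and the mutant's replicate 2 correlated more with Col-0 replicate 3 (0.185) than with its own number. The labels do not say what a replicate number shares.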
